A study of Mus musculus with 4 samples.

Results

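Subcluster 0 was 1 of 10 subclusters of group 2 innate lymphoid cells (ILC2s) from mouse liver and lung. Its members were the 300 genes that the deposited subcluster table listed for it, of 2629 genes listed for any subcluster (11.4%). Every gene listed for a subcluster had a higher average expression there than in all other ILC2s, which was a condition of the authors' marker search and not the whole of it, so the members were chosen by comparing the same cells that were clustered. Their values are therefore given as a description, with no test.

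ILC2s were sorted from the liver and lung of 8-week-old wild-type BALB/c mice as lineage-negative cells carrying CD127, Thy1 and ST2. The mice had received intraperitoneal injections on 5 days, either recombinant IL-33 (rIL-33) at 0.5 µg per day or PBS as the control. Each treatment and organ formed a group, and each of these 4 groups gave 1 single-cell RNA library, from tissue pooled over several mice. The deposited tables pooled the 4 libraries and gave no value per library and no number of cells or reads, so the shares are printed without an interval, and neither organ nor treatment was compared here.

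ILC2s are tissue-resident lymphocytes without antigen receptors that make type 2 cytokines. They depend on the transcription factor GATA3, and many are activated when the alarmin IL-33, released by damaged cells, binds its receptor ST2, the product of *Il1rl1*. Neuropeptides, lipids and cytokines from surrounding cells raise or restrain their output through dedicated receptors.

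Each value below is the share of cells in which a gene was detected, first in subcluster 0 and then in all other ILC2s, with the difference in percentage points. Of the 300 members, 190 were detected in a larger share of cells in subcluster 0, 109 in a smaller share and 1 in an equal share. The difference ran from -6.5 to 46.7 points with a median of 1.4. It reached 5 points for 88 members, 10 points for 52, 20 points for 19 and 30 points for 9. A total of 14 members were detected at least 2 times as often in subcluster 0 as elsewhere. A small number of members thus differed widely in detection, and all 9 with a difference of at least 30 points were also listed for subcluster 3, while most members were detected almost as often in the other ILC2s.

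**Figure D1:**
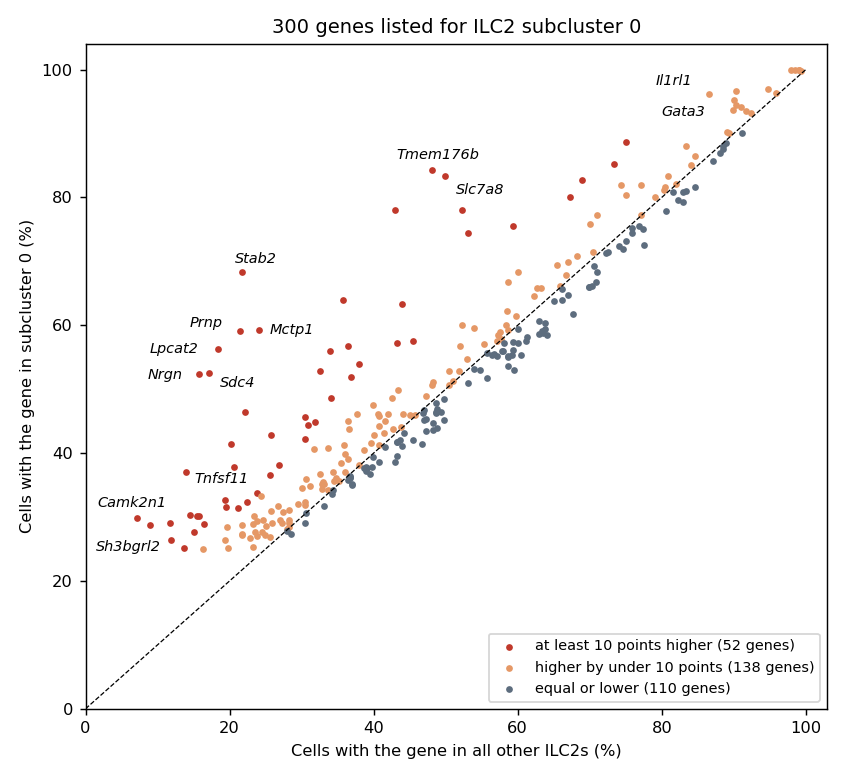
Percentage of cells with the gene in subcluster 0 (vertical axis) against the percentage in all other ILC2s (horizontal axis), 1 point per listed gene, with the dashed line at equal shares. The 52 genes that were at least 10 points higher stand clear of the line, led by *Stab2*, and the 110 genes with an equal or lower share lie close to it.

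Of the 5 genes taken as markers of subcluster 0, *Stab2*, *Prnp* and *Nrgn* had large differences, whereas *Il1rl1* and *Gata3* were detected in most ILC2s of any kind. *Stab2* encodes stabilin-2, a scavenger receptor for hyaluronan known from sinusoidal endothelium, and was detected in 68.4% of cells against 21.7% (46.7 points). *Prnp*, which encodes the cellular prion protein, was detected in 59.1% against 21.5% (37.6 points). Both were more frequent still in subcluster 9, which held only 0.611% of ILC2s, at 70.4% for *Stab2* and 74.1% for *Prnp*. *Nrgn* encodes neurogranin, a protein that binds calmodulin, and was detected in 52.4% against 15.7% (36.7 points). *Il1rl1* was detected in 96.2% against 86.6% (9.6 points), in cells that had been sorted on its protein product. *Gata3* was detected in 93.6% against 89.9%, a difference of 3.7 points. In GRCm38 with GENCODE M21 gene models, all 5 are protein-coding genes. *Stab2* spans chr10:86841198-87008025 on the minus strand, *Prnp* chr2:131909928-131938429 on the plus strand and *Nrgn* chr9:37544492-37552904 on the minus strand. *Il1rl1* spans chr1:40429570-40465415 on the plus strand and *Gata3* chr2:9857078-9890034 on the minus strand. All 5 were also listed for subcluster 3, and none was listed for subcluster 0 alone. In subcluster 3, *Gata3* and *Il1rl1* were detected slightly more often than in subcluster 0, at 94.8% and 97.0%.

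Because *Gata3* was among the markers, promoters were searched for the motif that GATA factors bind. The search covered 300-base RefSeq promoter windows of GRCm38.p6, which is a C57BL/6J reference whereas the mice were BALB/c. Of 2 *Il1rl1* windows, the one shown held 5 matches to the GATA letters, which were AGATAA and AGATAG as well as TGATAA and TGATAG, on either strand. The other *Il1rl1* window and the *Gata3* window held 1 match each, and the windows of *Nrgn*, *Stab2* and *Prnp* held 0. The *Prnp* window held 1 match to the AP-1 letters TGACTCA or TGAGTCA. The 250 bases before each start, both on the plus strand, are shown for this reason, with the matches in capitals, at chr1:40429320-40429569 for *Il1rl1* and chr2:131909678-131909927 for *Prnp*.
Il1rl1: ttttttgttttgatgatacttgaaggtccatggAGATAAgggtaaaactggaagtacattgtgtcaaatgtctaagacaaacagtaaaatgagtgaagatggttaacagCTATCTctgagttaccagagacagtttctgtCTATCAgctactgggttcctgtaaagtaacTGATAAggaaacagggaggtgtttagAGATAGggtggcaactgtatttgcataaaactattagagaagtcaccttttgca
Prnp: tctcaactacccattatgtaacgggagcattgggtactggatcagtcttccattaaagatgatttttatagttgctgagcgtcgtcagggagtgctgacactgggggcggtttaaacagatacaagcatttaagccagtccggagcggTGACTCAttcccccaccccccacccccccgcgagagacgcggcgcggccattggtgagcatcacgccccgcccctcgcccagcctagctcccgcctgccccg
Some genes had several windows and were counted once, with a match in any of them. At least 1 window was given for 240 of the 300 members, and 46 of these genes (19.2%) had a GATA match, compared with 21.5% of 2122 subcluster table genes and 33.0% of all 27025 genes with a window. The GATA share was 22.3% among the members with a higher share of cells, 16.4% among those listed for no other subcluster and 14.9% among those at least 10 points higher. It ran from 18.5% to 31.3% over the lists of the other subclusters. The AP-1 letters were found for 22 members (9.17%), compared with 4.67% of subcluster table genes and 5.95% of all genes with a window. It was 5.97% among the members listed for no other subcluster and 10.6% among those at least 10 points higher. The AP-1 share ran from 3.35% to 8.65% over the lists of the other subclusters. The AP-1 search was added after the data had been seen, as were searches for motifs named Runx, Sp, Ets and CRE. These were found for 5.83%, 73.8%, 7.08% and 2.5% of members. Among subcluster table genes they were found for 7.02%, 73.6%, 9.38% and 3.58%. A match is a stretch of letters in the reference and no measurement of binding.

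The other genes with the largest differences were *Lpcat2*, *Tmem176b*, *Sdc4*, *Mctp1*, *Tmem176a* and *Slc7a8*. *Lpcat2*, a lysophosphatidylcholine acyltransferase that makes platelet-activating factor, was detected in 56.3% of cells against 18.4%. The neighbouring genes *Tmem176b* and *Tmem176a* encode related transmembrane proteins and were detected in 84.3% against 48.1% and in 78.0% against 42.9%. These genes lie on opposite strands of chromosome 6 and overlap by 578 bases, so reads from the overlap can be told apart by strand only. *Sdc4*, which encodes the heparan sulfate proteoglycan syndecan-4, was detected in 52.6% against 17.2%, and in 63.0% of subcluster 9. *Mctp1*, a calcium-binding membrane protein, was detected in 59.2% against 24.1%. *Slc7a8*, a transporter of large neutral amino acids, was detected in 83.3% against 49.9%. Together with *Stab2*, *Prnp* and *Nrgn*, these were the 9 members with a difference of at least 30 points.

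*Mdfic*, which encodes a transcriptional modulator, came next by difference and was detected in 63.9% of cells against 35.7%. Ranked by the ratio of the shares, the first 10 members added *Tnfsf11*, *Camk2n1*, *Rgs18* and *Sh3bgrl2* to the genes above. *Tnfsf11* encodes the cytokine RANKL and was detected in 37.0% against 13.9%, which was 2.66 times as often. *Camk2n1* encodes an inhibitor of calmodulin-dependent kinase II and had the largest ratio of any member, at 29.8% against 7.2% or 4.14 times. *Rgs18*, a regulator of G-protein signalling, was detected in 29.1% against 11.7%. *Sh3bgrl2* was detected in 28.7% against 9.0% and was the member with the largest difference among those listed for no other subcluster.

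Since the cells outside subcluster 0 include other subclusters that list the same gene, the leading genes were also set against the ILC2s of those subclusters that did not list them. There, *Nrgn* was detected in 8.4% of cells, *Sdc4* in 10.8%, *Stab2* in 11.3% and *Prnp* in 12.2%. Higher shares were left for others, among them *Tmem176a* (35.7%), *Tmem176b* (41.2%) and *Slc7a8* (41.8%). *Gata3* and *Il1rl1* remained common in those cells, at 88.6% and 83.9%. These shares rest on subcluster sizes solved from the table, in which subcluster 0 held 27.3% of ILC2s and was the largest, ahead of subcluster 1 at 20.1% and subcluster 2 at 18.3%.

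**Figure D2:**
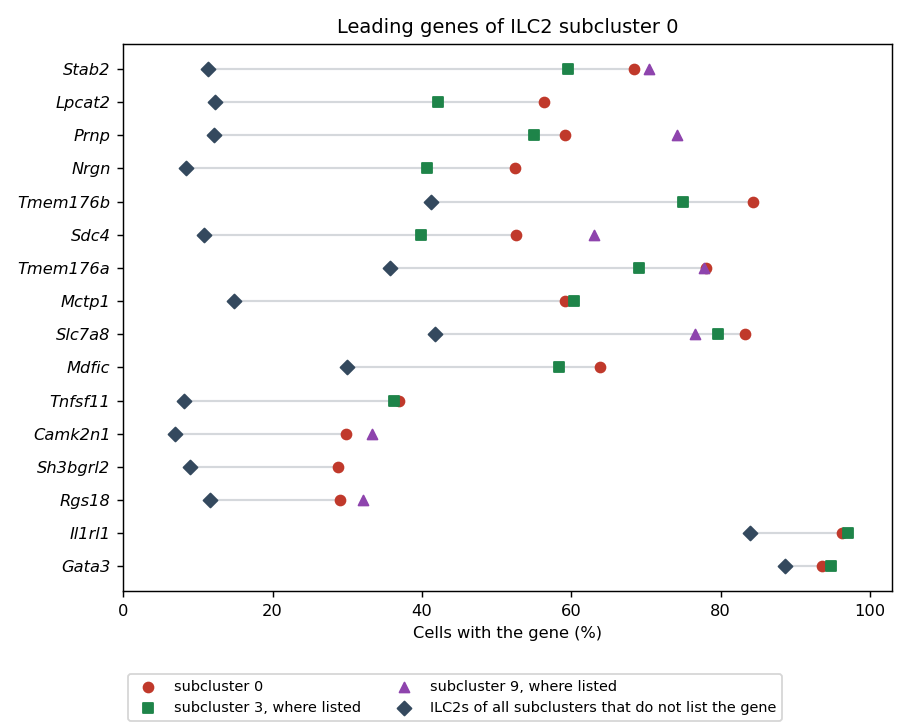
Percentage of cells with the gene (horizontal axis) for 16 leading genes and markers, in subcluster 0 (circles), in subclusters 3 (squares) and 9 (triangles) where these list the gene, and in the ILC2s of all subclusters that do not list it (diamonds). Subcluster 3 lies within 15 points of subcluster 0 for each gene it lists, while *Gata3* and *Il1rl1* are above 80% even where they are not listed.

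Most members were not particular to subcluster 0 in the table. A total of 86 members were listed for subcluster 0 alone, of which 36 had a higher and 50 a lower share of cells there, with a median difference of -0.6 points. Of the rest, 141 were listed for exactly 1 other subcluster, 65 for exactly 2 others and 8 for 3 or more. With subcluster 5 set aside, 142 members were listed for subcluster 0 alone. The largest overlaps were with subclusters 3, 5 and 9. Subcluster 0 shared 99 genes with subcluster 3, which were 33.0% of its own list and 41.8% of that of subcluster 3. It shared 102 genes with subcluster 5 (34.0% of its own list and 10.2% of the other) and 64 with subcluster 9 (21.3% and 32.2%). For subcluster 5 the 10.2% is near the 11.4% of all table genes that subcluster 0 lists. It shared none with subcluster 1 or 2, whose comparison groups each contained subcluster 0. Of the 52 members with a difference of at least 10 points, 38 were also listed for subcluster 3. The exceptions listed for no other subcluster were *Sh3bgrl2*, *Mns1*, *Apbb2* and *Lmna*. *Lmna*, which encodes the nuclear lamins A and C, was detected in 48.6% against 34.1%.

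**Figure D3:**
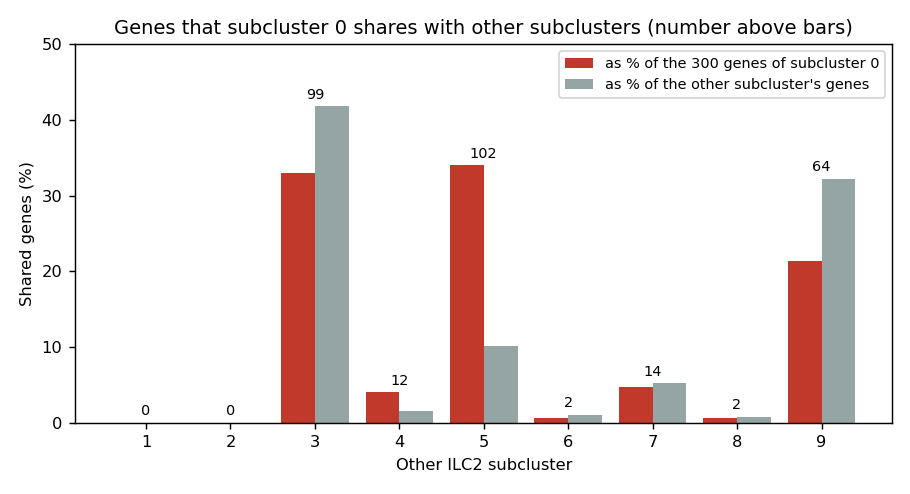
Genes listed both for subcluster 0 and for each other ILC2 subcluster, as a percentage of the 300 genes of subcluster 0 (red) and of the other subcluster's own list (grey), with the number of shared genes above the bars. Subclusters 3, 5 and 9 share 99, 102 and 64 genes, and subclusters 1 and 2 share none.

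Detection was compared with subclusters 3, 5 and 9 over the genes listed for both, and of these subcluster 3, at 14.9% of ILC2s, had the median difference nearest to 0. Over the 99 shared genes the share in subcluster 0 minus that in subcluster 3 had a median of -1.0 points, with 36 genes higher in subcluster 0, 61 lower and 2 equal. The genes detected more often in subcluster 0 were led by *Lpcat2* (14.2 points), *Sdc4* (12.7 points) and *Nrgn* (11.7 points). *Txnip*, which encodes a thioredoxin-binding protein that limits glucose uptake, was detected in 88.6% of subcluster 0 and 77.5% of subcluster 3. The largest differences the other way were for *Calca*, *Hs3st1* and *Ccr8*. *Calca*, the gene of calcitonin gene-related peptide, was detected in 33.3% of subcluster 0 and 55.2% of subcluster 3. *Hs3st1*, a heparan sulfate sulfotransferase, was detected in 56.8% and 75.6%, and the chemokine receptor gene *Ccr8* in 35.4% and 46.6%.

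Subcluster 9 held 0.611% of ILC2s, and 61 of the 64 genes it shared with subcluster 0 were detected more often there, with a median difference of -11.1 points for subcluster 0 minus subcluster 9. These genes were compared because both subclusters listed them, and all 199 genes listed for subcluster 9 had a higher share there than elsewhere. The direction was thus partly set by how the genes were chosen. *Slc7a8* was the only shared gene at least 5 points higher in subcluster 0 (83.3% and 76.5%). *Pcsk1*, which encodes a convertase that cleaves prohormones, was detected in 42.9% of subcluster 0 and 71.6% of subcluster 9. *Nrp1*, a co-receptor for semaphorins and VEGF, was detected in 30.1% and 51.9%. Subcluster 5 held 3.87% of ILC2s and differed from the others in that 97.8% of its listed genes were detected in a smaller share of its cells than elsewhere. All 102 genes it shared with subcluster 0 were detected more often in subcluster 0, by 6.0 to 50.8 points. Subclusters 0 and 5 thus listed these genes in common but detected them at unlike rates.

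Receptors and ligands were counted on gene lists assembled for this tissue, and a list's share is read beside the 11.4% of all table genes that subcluster 0 lists. All 5 of the neuropeptide genes and receptors in the table were listed for subcluster 0, each with a higher share. The other genes of this 15-gene list were listed for no subcluster, and the lists were chosen with earlier results of these data known. This count is therefore a description. Subclusters 9, 3 and 5 listed 4, 2 and 2 of these 5. *Ramp1* and *Calcrl* encode the subunits of the receptor for calcitonin gene-related peptide. *Ramp1* was detected in 96.7% of cells against 90.3% and *Calcrl* in 32.4% against 22.4%. *Calca*, the gene of the ligand itself, was detected in 33.3% against 24.3%. *Vipr2*, a receptor for vasoactive intestinal peptide, was detected in 33.8% against 23.8%, and *Pcsk1* in 42.9% against 25.7%. All 4 that subcluster 9 listed were detected more often there than in subcluster 0, namely *Ramp1*, *Calcrl* (38.3%), *Vipr2* (55.6%) and *Pcsk1* (71.6%).

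Of 15 cytokine and growth factor receptors in the table, 7 were listed, 4 with a higher share and 3 with a lower one. *Kit*, the receptor of stem cell factor, differed most, at 41.5% against 20.2%. *Il2ra*, the alpha subunit of the high-affinity IL-2 receptor, was detected in 81.9% against 74.3%. The common gamma chain gene *Il2rg* (87.0% against 88.1%), *Il9r* (46.0% against 45.7%) and *Tnfrsf18*, which encodes GITR (75.2% against 75.9%), were detected almost equally. *Il27ra*, a receptor subunit for the restraining cytokine IL-27, was detected in 53.7% against 58.7% although its average was higher in subcluster 0. Of the 3 TNF superfamily ligands in the table, *Tnfsf11* and *Ltb* were listed, and *Ltb* (lymphotoxin beta) was detected in 96.9% against 94.7%.

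Among 20 chemokine, lipid and metabolite receptors in the table, 8 were listed, 7 of them with a higher share. *Ffar2*, a receptor for short-chain fatty acids, was detected in 46.4% of cells against 22.2%. *Lpar6*, a receptor for lysophosphatidic acid, was detected in 42.2% against 30.5%. *Lpar6* lies within *Rb1* on the opposite strand, with 5400 bases in common, and *Rb1* itself was listed at 55.6% against 55.7%. *F2r*, a thrombin receptor, was detected in 47.5% against 39.9%. *Cysltr1*, which binds cysteinyl leukotrienes, was detected in 70.8% against 68.2%. *Ccr2*, a receptor for monocyte chemoattractants, was detected in 79.6% against 82.3%.

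**Figure D4:**
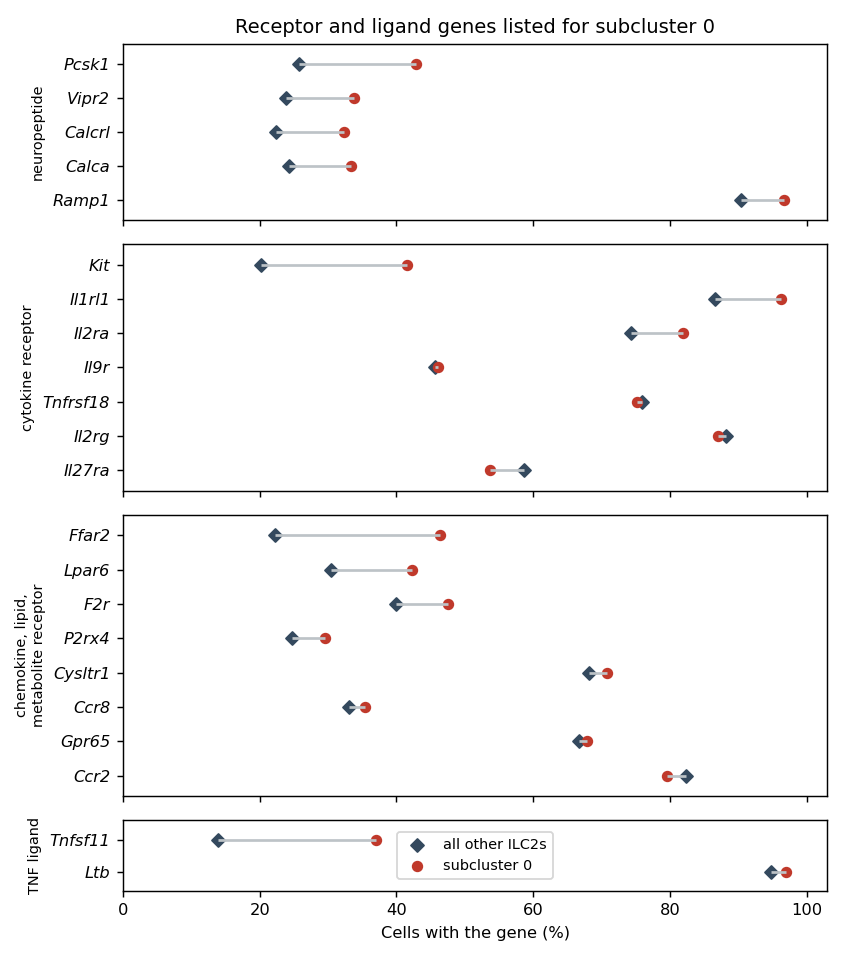
Percentage of cells with the gene (horizontal axis) in subcluster 0 (circles) and in all other ILC2s (diamonds) for every listed gene of 4 receptor and ligand groups. *Tnfsf11*, *Ffar2*, *Kit* and *Pcsk1* have the widest gaps, whereas *Il9r*, *Tnfrsf18*, *Il2rg* and *Gpr65* nearly coincide.

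Of 16 ILC2 identity genes in the table, 6 were listed for subcluster 0, all with a higher share and a median difference of 9.3 points, against 1.4 over all members. They were *Gata3*, *Il1rl1*, *Il2ra*, *Kit*, *Hs3st1* and *Calca*. Subcluster 3 listed 10 of these genes and subcluster 7 listed 6. Of 7 type 2 effector genes in the table, 1 was listed, which is near the share of all table genes. It was *Calca*, which is also on the neuropeptide list. *Il13*, which encodes a principal ILC2 cytokine, was detected in 37.0% of all ILC2s and was not listed for subcluster 0. Together, the subclusters that did not list *Il13* held 50.3% of ILC2s, and 17.8% of their cells had the gene. As subcluster 0 is 27.3% of ILC2s, the share in its own cells was at most 32.8%, a limit known to within 0.85 points because the deposited shares are rounded. For *Areg* (amphiregulin), *Il5* and *Klrg1*, which were also not listed for subcluster 0, the table set no useful limit.

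Transcription factors and regulators of quiescence gave a mixed list. Of 16 quiescence and survival genes in the table, 5 were listed, 4 with a higher share. *Txnip* was detected in 88.6% of cells against 75.1%. *Zbtb20*, a zinc finger repressor, was detected in 44.9% against 31.9%, *Hlf*, a PAR bZIP factor of stem cells, in 66.7% against 58.6%, and *Bcl2*, which blocks apoptosis, in 77.3% against 71.0%. Of 7 Krüppel-like factors, *Klf9* (44.4% against 30.9%), *Klf3* (57.6% against 45.4%) and *Klf7* (41.7% against 43.2%) were listed. *Fosb* was listed alone among 7 AP-1 genes in the table, which is near the share of all table genes. It was detected in 85.3% against 73.4%, and was more frequent still in subcluster 3 (92.4%). Of 8 nuclear receptors and ligand-activated factors, 3 were listed, each with a higher share. Among them, the retinoic acid receptor gene *Rarg* was detected in 28.7% against 21.7%, and the aryl hydrocarbon receptor gene *Ahr* in 36.7% against 32.6%.

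Genes of signalling brakes and of transport were also counted. Of 13 feedback regulators, *Socs1* (35.9% against 30.6%), *Dusp6* (27.6% against 23.5%) and *Cish* (57.5% against 61.1%) were listed. Of 12 calmodulin and calcium signalling genes, 6 were listed. *Nrgn* and *Camk2n1*, both of which restrain calmodulin signalling, had the largest differences there. *Calm2*, a calmodulin gene itself, was detected in 88.1% against 88.5%, and *Ppp3r1*, the regulatory subunit of calcineurin, in 34.3% against 34.4%. Of 7 amino acid transport genes, 3 were listed. *Slc3a2*, the heavy chain that pairs with light chains of the *Slc7* family, was detected in 80.4% against 75.1%, and *Slc6a13*, a transporter of GABA and taurine, in 40.8% against 33.7%. Of 6 tetraspanins, 4 were listed, among which *Cd81* differed most (75.5% against 59.4%).

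The 109 members with a smaller share differed little from the other ILC2s. The difference was widest for *Sppl2a*, an intramembrane protease, at 53.0% against 59.5%, and for *Ier3ip1*, a protein of the endoplasmic reticulum, at 61.7% against 67.7%. Of 15 lysosome genes, 9 were listed, 3 with a higher share and 6 with a lower one. *Npc1*, a lysosomal cholesterol transporter, was detected in 25.0% against 16.3%, and *Lamp1*, a lysosomal membrane glycoprotein, in 59.4% against 63.8%. Of 27 RNA processing genes, 12 were listed with a median difference of 0.2 points. Of 17 interferon response genes, *Slfn5* (28.9% against 23.3%) and *Samhd1* (87.5% against 88.5%) were listed, which is near the share of all table genes. Of 43 respiratory chain and ATP synthase genes, 4 were listed, which is near the share of all table genes, and none of 15 proliferation genes was. *Stmn1*, a tubulin-binding protein abundant in dividing cells, was detected in 16.0% of all ILC2s and in at most 32.5% of subcluster 0. The limits differed widely over the proliferation list. *Rrm2* was detected in at most 10.3% of subcluster 0, whereas *Hmgb2* and *H2afz* were detected in at least 76.8% and 63.2%. For *Pcna* there was no useful limit.

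Defining genes of other cell types were counted in the same way, on lists of which few genes were in the table. None of 6 T cell genes, 4 NK cell and ILC1 genes, 4 myeloid genes or 1 B cell gene in the table was listed for subcluster 0. No ILC3, mast cell and basophil, hepatocyte or lung epithelium gene of those lists was in the subcluster table at all. The sort had removed cells carrying CD3e, and cells with markers of other lineages were left out before subclustering. The T cell gene *Cd3e* was detected in 5.8% of all ILC2s and in at most 16.5% of subcluster 0, and *Trdc* in 7.7% and at most 24.6%. *Cd3g* was detected in 32.9% of all ILC2s, and the table set no useful limit for its share in subcluster 0. *Tcrg-C1* was detected in at most 87.6% of subcluster 0, so neither *Cd3g* nor *Tcrg-C1* was shown to be rare there. The T cell receptor constant genes *Trbc1* and *Trbc2* were common in all ILC2s, at 79.6% and 81.8%, and were detected in at least 33.9% and 53.8% of subcluster 0. Of 2 endothelial genes in the table, *Stab2* was listed for subcluster 0, and *Pecam1* was listed for subclusters 1, 5 and 8. Of 4 platelet genes in the table, *Nrgn*, *F2r* and *Rgs18* were listed, whereas the platelet chemokine genes *Pf4* and *Ppbp* were listed for no subcluster. Their part in these results was not tested.

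The deposited table of 21 cell types, which covers all cells before the ILC2s were clustered on their own, held part of the members. Its shares are not comparable with those above and were not used as detection rates. For *Stab2*, it gives 77.2% of the ILC2 cell type, whereas no subcluster that listed the gene exceeded 70.4%. The cause of this was not tested, and the table is used here only for which genes it listed. Of the 300 members, 88 were among the 820 genes that both tables listed. Of these, 63 (71.6%) were on the list of the ILC2 cell type, compared with 116 of all 820 genes (14.1%). The share was 57 of 76 for members with a higher share in subcluster 0 and 6 of 12 for members with a lower one. A total of 8 members were listed for the ILC2 cell type and no other, among them *Ffar2*, *Ldhd*, *Lpcat2*, *Mns1*, *Slc6a13*, *Stxbp6* and *Zcchc10*. A second cell type with an ILC2 label, ILC2_2, listed 34 of the 88 members (38.6%), compared with 16.8% of all 820 genes. The ILC3 type listed 24 (27.3%, compared with 13.4%) and the type ILC1_ILC3 listed 21 (23.9%, compared with 17.7%). Not every type stood above its share of the 820 genes. The type MMP_LMPP listed 19 (21.6%), compared with 281 of all 820 genes, and the type Basophil listed 13 (14.8%), compared with 132. The type labelled as endothelium listed 20 (22.7%, compared with 13.2%), 19 of them with a higher share in subcluster 0. The γδ T cell type labelled gdT_TypeII listed 17 (19.3%, compared with 3.29%), which were 63.0% of its own 27 genes in both tables. *Stab2* was listed for ILC2, ILC2_2 and gdT_TypeII and was not among the genes listed for endothelium.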

How the data were processed

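Sorted cells were sequenced on the 10x Chromium 3' platform. Per the labels and the study's methods, the authors removed doublets and dead cells by flow cytometry, counted reads with Cell Ranger on mm10, removed cells with few detected genes and cells with markers of other lineages, normalized and clustered with Seurat, and tabulated marker genes over the pooled libraries. The share values used here are the authors' fraction of cells with a gene in a cluster and in all other cells, deposited with 3 decimals. All 3745 listings of the subcluster table have a higher average in the cluster, and at least 1 of the 2 shares was 25.0% or more. Further columns hold the authors' fold changes, p-values and adjusted p-values, of which only the sign of the fold change was read, to check how genes had been listed. No doublet caller was run here. Counts per cell, cell numbers and values per library were not analysed here, so no test or interval was computed. No column of per-sample values was left unused (0).

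From the shares, Python 3.11.15 with pandas 2.3.3 and numpy 2.4.6 computed differences and ratios of subcluster 0 to the other ILC2s. Subcluster sizes were solved by least squares from 768 genes listed for several subclusters (1884 listings), as each pair of shares must give the same share in all ILC2s. The standard error for subcluster 0 was 0.0274 points, the sizes summed to 100.2%, and on simulated data the largest error was 0.0174 points. Sizes gave the share in subclusters not listing a gene and the limits for subcluster 0. Of the members, 297 matched GENCODE M21, 296 of them protein coding, and 240 had a RefSeq promoter. *Xlr4a* and *Xlr4c* are near-identical copies whose counts are uncertain.

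Genes were named as the largest differences and ratios, the 5 markers, and the members of 29 gene lists (459 genes). The members and lists were chosen with earlier results of these data known, so counts over them are descriptions. Values of some genes are not reported here.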

Additional observations from a re-analysis of the deposited data

How the results depend on the processing

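The list of 300 genes depended on what was asked of the shares. A larger share by any amount left 190, a share in subcluster 0 of at least 50% left 150, and a margin of 10 points left 52. Of the 190 genes with a larger share, margins of 5 and 10 points left 88 and 52. Genes listed for subcluster 0 alone numbered 86, and 142 when subcluster 5 was set aside. The overlap with subcluster 3 was 99 genes, and 49 with a margin of 5 points. With only listings of a larger share, the overlap with subcluster 5 went from 102 genes to 1, and that with subcluster 9 from 64 to 49. Members on the gene lists went from 81 to 56 in the same way, those on the ILC2 list from 63 to 57, and genes listed for subcluster 0 alone from 86 to 64, or to 121 without subclusters 7, 8 and 9. The size of subcluster 0 stayed between 27.3% and 27.4%. The searches for AP-1 and other motifs were added after the data had been seen. No paired analysis was possible because the deposited tables combine the libraries, 1 per group, and for the same reason no replicate could be left out.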
